A study of Homo sapiens with 402 samples.

Results

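Control wells that received solvent and no chemical were compared with each other by their control number. They were the wells of sequencing run 2 labelled as control at dose 0. Within each plate and solvent the numbers run in blocks of 16, and the first 8 numbers of a block (early controls) were set against the last 8 (late controls). The rule took 57 wells of the 402 samples: 8 early and 7 late controls in water on plate 3153-AT, 8 and 7 in DMSO on plate 3206-AT, 6 and 6 in DMSO on plate 3240-AT, and 8 and 7 in DMSO on plate 3284-AT. All held MCF10A, a non-tumorigenic human breast epithelial line labelled wild type, at passage 105, plated at 500 cells per well in 384-well plates and lysed after 48 h. The study exposed this line to chemicals linked to breast cancer disparities, and its control wells are the baseline for every chemical on the same plate. The same plates held 316 dosed wells. Another 4 water controls on plate 3240-AT and 8 controls of sequencing run 1 lay outside the comparison. The run 1 controls are labelled plate 3153-AT in water and carry numbers 9 to 16, the last 8 of that plate's block. No early number of that plate occurs among them. Control numbers 9, 25 and 62 are not among the samples analysed here. All wells come from 1 cell line at 1 passage, and nothing in the labels says whether control wells came from separate cultures, so p-values measure the spread between wells.

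MCF10A cells grow as a basal-like epithelium and keep several programs that respond to their surroundings. NF-kappaB drives chemokines such as CXCL1 and acute phase proteins such as SAA1 and S100A8 when epithelial cells sense damage or cytokines. Cells that leave or enter the cell cycle shift E2F-driven replication genes and mitotic genes together. Hypoxia, glucocorticoid, metal and oxidant signals act through HIF, the glucocorticoid receptor, MTF1 and NRF2 on gene sets that overlap only in part.

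In the library method each well receives its own barcode before the wells of a plate are pooled. Each of the 16 places carried the same barcode on every plate that held a well there, and no plate held all 16 among the wells compared, so a barcode occurred among the early or among the late controls and never in both. They are printed because they tie each place in the block to 1 reagent.
place 1, early: actcaccg
place 2, early: ccttatgt
place 3, early: atagatcc
place 4, early: ggagctat
place 5, early: tggtgact
place 6, early: ccgagtta
place 7, early: tggtggaa
place 8, early: ctgtacgc
place 9, late: ttccattc
place 10, late: ctaaggcg
place 11, late: gttatcga
place 12, late: tggacaac
place 13, late: ctattcca
place 14, late: ctgcgaac
place 15, late: gccagtgt
place 16, late: gtgcgttc
The early barcodes held 32 and the late barcodes 33 G or C bases in all. The control number, the barcode and whatever place in the plate they stand for cannot be told apart in these wells.

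Late controls had fewer reads on every plate. Their total counts, in M (mega) counts, ran from 1.93 to 5.399 M (median 3.17) on plate 3153-AT, where the early controls ran from 12.6 to 23.9 M (median 20.9). On plate 3284-AT the late controls ran from 2.31 to 4.73 M (median 3.18) and the early controls from 15.1 to 22.5 M (median 17.9). The medians were 8.77 against 15.8 M on plate 3206-AT and 7.01 against 12.99 M on plate 3240-AT. The totals did not overlap on 3 plates, and on plate 3240-AT they overlapped by a single early well. The two-sided exact permutation p adjusted over 16 tests was 0.000622 on the 3 plates and 0.0077 on plate 3240-AT. Late controls also showed fewer symbols with a count, also after every library of a plate was thinned to the smallest total: 12974 against 15550 symbols in the median on plate 3153-AT and 15601 against 16970 on plate 3206-AT. Defining markers matched the labelled line in part. KRT5 ran from 763 to 1575 CPM (counts scaled to the depth of each library) over the 57 wells. The lowest wells had 2.16 CPM of KRT14, 1.95 CPM of CDH1 and 0.263 CPM of TP63. PGR and CD3E were at 0 in all wells, and COL1A2, PTPRC, ITGAM and VWF were each at 0 in 56. The fibroblast markers DCN (9.745 to 146.5 CPM) and FAP (2.641 to 30.42 CPM) were above 0 in every well. So was the immune marker CD14 (12.92 to 81.94 CPM), and CSF1R was at 0 in 4.

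**Figure D1:**
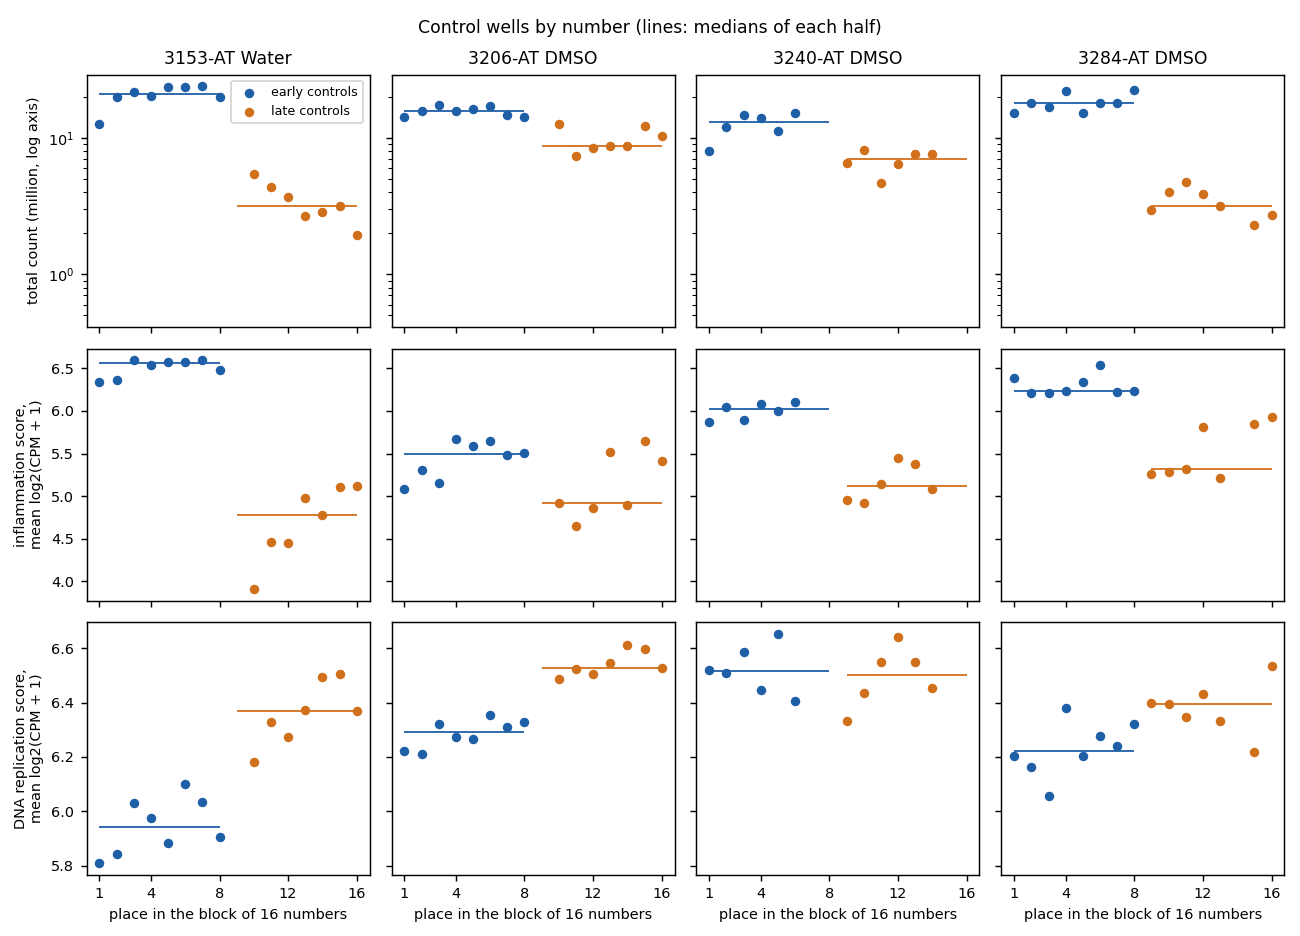
Total count (top row, M, log axis), inflammation score (middle row) and DNA replication score (bottom row) of each control well against its place in the block of 16, 1 column of panels per plate; each score averages log2(CPM + 1) over the listed genes, points are wells and lines are medians. On plate 3153-AT the late wells have lower totals and inflammation scores and higher replication scores than every early well, while the replication scores of plate 3240-AT overlap.

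How many genes differed between early and late controls depended on the plate. Calls were made with edgeR's quasi-likelihood test where the Benjamini-Hochberg adjusted p was under 0.05. On plate 3153-AT, 1245 genes were higher in the late controls (9.47% of 13141 tested) and 1425 were lower (10.8%). Plate 3206-AT gave 432 higher (3.09% of 13976) and 417 lower (2.98%), and plate 3284-AT gave 292 higher (2.20% of 13295) and 556 lower (4.18%). On plate 3240-AT only 21 genes were higher (0.164% of 12823) and 49 were lower (0.382%). A fit of all 4 plates with a mean for each plate called 720 genes higher (4.26% of 16900) and 1105 lower (6.54%). Without plate 3153-AT that fit called 151 genes higher and 275 lower. With every library thinned to the smallest total of its plate, the calls numbered 2259, 896, 70 and 762 on plates 3153-AT, 3206-AT, 3240-AT and 3284-AT. With RLE scaling in place of TMM the split of the 4-plate calls was 927 higher and 903 lower, and that of plate 3284-AT was 392 higher and 431 lower. Without the libraries of under 5 M counts, which leaves 1 late control on plate 3153-AT and 0 on plate 3284-AT, the 4-plate fit called 92 genes higher and 204 lower. On plate 3240-AT the count of calls moved to 163 without early control 35, to 45 without early control 36 and to 43 without late control 41.

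The difference itself varied between plates. A test of the interaction between plate and control number called 1981 of 16900 genes (11.7%), and the genes with the smallest p at an average log2 CPM of at least 4 were IFITM3, an interferon-induced membrane protein, SAA1, MALAT1, S100A9, MT2A and SOD2. Of the 12424 genes tested on all 4 plates, 14 were lower in the late controls and called on each plate, and 1 was higher. The 1 was THBS1, which encodes the matrix glycoprotein thrombospondin. The 14 were CXCL1, CXCL2, CXCL3, CXCL8, SOD2, ZC3H12A, NFKBIZ, NAMPT, IL1RL1, C1R, SERPINA1, NNMT, PHC2 and SAMSN1. CXCL8, NFKBIZ, NAMPT, SERPINA1, NNMT, PHC2 and SAMSN1 lie outside the rule for named genes and are named here after their values were seen. A further 81 genes were lower and 40 higher with a call on 3 of the plates. Plates share no libraries. Of the 849 calls on plate 3206-AT, 844 were tested on plate 3153-AT, where 409 of them were called as well (48.5% of these and 15.4% of the calls of plate 3153-AT) and 315 had the same direction. Plates 3153-AT and 3284-AT shared 458 calls, 441 of them in the same direction, which made up 17.3% and 54.1% of their calls. Plates 3206-AT and 3284-AT shared 206 calls (24.4% and 24.3%), 147 in the same direction, and plates 3206-AT and 3240-AT shared 36 (4.28% and 52.9%), 17 in the same direction. Plate 3240-AT shared 53 calls with plate 3153-AT (76.8% and 2.02%) and 35 with plate 3284-AT (50.7% and 4.14%), of which 49 and 32 had the same direction. Among all genes tested on both plates of a pair, plate 3153-AT called 2623 to 2655 of 12516 to 12950. In the same way plate 3206-AT called 841 to 845 of 12761 to 13106 and plate 3284-AT 846 to 848 of 12619 to 13106. Plate 3240-AT called 68 or 69 of 12516 to 12761.

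Inflammatory genes were lower in late controls, and on plate 3153-AT their median lay further from 0 than that of any other of the 34 gene lists. Of the 26 listed genes 24 were tested in the 4-plate fit, where 19 were lower, 0 were higher and 5 did not pass (IL1A, IL1B, IL6, LIF and PTGS2). The median log2 difference of the list, late minus early, was -0.75, beside -0.03 for all genes. The plates gave 20 lower of 23 tested (median -1.59) on 3153-AT, 7 of 23 (median -0.25) on 3206-AT, 13 of 22 (median -0.76) on 3240-AT and 15 of 24 (median -0.64) on 3284-AT, with 0 higher on each. Without plate 3153-AT, 17 of 24 were lower. Less RNA per cell and fewer cells that express these genes cannot be told apart in whole-well RNA.

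The 3 neighbouring chemokine genes CXCL1, CXCL2 and CXCL3, which attract neutrophils, fell together. Bases upstream of their start sites are printed from RefSeq (GRCh38.p14), on the strand of the gene and 5′ to 3′. The capitals mark a form of the NF-kappaB recognition sequence, searched with any base between GGGA and TTTCC. The windows are chr4:73869269-73869368 on the plus strand, chr4:74099219-74099318 on the minus strand and chr4:74038714-74038813 on the minus strand, all upstream of the start sites.
CXCL1: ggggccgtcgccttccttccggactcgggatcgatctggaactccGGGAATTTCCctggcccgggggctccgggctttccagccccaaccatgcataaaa
CXCL2: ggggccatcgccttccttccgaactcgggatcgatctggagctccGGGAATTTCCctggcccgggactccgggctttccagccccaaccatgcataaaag
CXCL3: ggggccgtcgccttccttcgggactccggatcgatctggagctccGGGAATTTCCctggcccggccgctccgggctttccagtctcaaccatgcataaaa
The motif stood 79, 78 and 79 bases before the start sites. Searched on both strands of the 250 bases before each start, it was found in 7 of the 21 inflammation genes with a promoter in the table (33.3%) and in 149 of all 27305 promoters (0.546%). Apart from these chemokines it was found in CXCL5, IL6, NFKBIA and TNFAIP3. A match is a run of letters and no measure of binding. The shares compare listed genes with all promoters, so they do not bear on the difference between early and late controls.

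CXCL1 on plate 3153-AT ran from 1133 to 1434 CPM (median 1349) in the early controls and from 110 to 647 CPM (median 437) in the late controls. It ran from 1340 to 1673 CPM (median 1434) against 567 to 1073 CPM (median 859) on plate 3240-AT, and from 1295 to 1675 CPM (median 1472) against 512 to 1087 CPM (median 702) on plate 3284-AT. The late wells lay below all early wells on these 3 plates. On plate 3206-AT the early wells ran from 583 to 969 CPM (median 853) and the late wells from 379 to 940 CPM (median 542), and the groups overlapped. The log2 differences were -1.80 ± 0.14 (SE), -0.37 ± 0.10, -0.78 ± 0.10 and -0.94 ± 0.08 in the order of the plate numbers, each of them called. CXCL2 fell by 1.04 ± 0.09 (SE) and CXCL3 by 1.01 ± 0.10 on the log2 scale over the 4 plates (adjusted p = 3.0e-16 and 3.5e-14).

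S100A8 and S100A9 form the antimicrobial protein calprotectin, and both were lower in the 4-plate fit. On plate 3153-AT, S100A8 ran from 749 to 1116 CPM (median 825) in the early controls and from 8.45 to 35.7 CPM (median 14.1) in the late controls. The corresponding values were 29.4 to 72.6 CPM (median 36.5) against 7.69 to 17.4 CPM (median 13.8) on plate 3240-AT and 153 to 326 CPM (median 239) against 20.9 to 110 CPM (median 40.1) on plate 3284-AT. Early and late wells were separate on these 3 plates. On plate 3206-AT they overlapped, with early wells from 19.1 to 59.4 CPM (median 45.1) and late wells from 4.32 to 55.8 CPM (median 19.9). The log2 differences were -5.61 ± 0.13 (SE), -0.62 ± 0.23, -1.76 ± 0.22 and -2.01 ± 0.17, and the one on plate 3206-AT was not called (adjusted p = 0.093). Over the 4 plates S100A8 fell by 2.53 ± 0.23 and S100A9 by 2.05 ± 0.20.

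The acute phase genes SAA1 and SAA2 followed the same plates. SAA1 on plate 3153-AT ran from 1748 to 2232 CPM (median 1930) in early and from 133 to 322 CPM (median 192) in late controls, and on plate 3284-AT from 2262 to 3251 CPM (median 2839) against 636 to 1779 CPM (median 846). Neither plate had an overlap. The log2 difference was -3.27 ± 0.10 on plate 3153-AT, -0.95 ± 0.12 on 3240-AT and -1.36 ± 0.09 on 3284-AT, while on plate 3206-AT it was -0.04 ± 0.11 (adjusted p = 0.88). SOD2, the mitochondrial superoxide dismutase that NF-kappaB induces, and ZC3H12A, a ribonuclease that degrades cytokine transcripts, fell by 1.12 ± 0.12 and 1.05 ± 0.09 over the 4 plates. NFKBIA, the inhibitor that holds NF-kappaB in the cytoplasm, fell by 0.46 ± 0.04 (adjusted p = 1.3e-15). The cytokine gene IL1B did not pass in the 4-plate fit at -0.28 ± 0.13, and its single-plate values ran from -1.09 on plate 3240-AT, where it was called, to 0.51 on plate 3206-AT, where it was not.

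IL1RL1 encodes ST2, the receptor for interleukin-33, and was called lower on each plate. Its level was 57.7 to 91.5 CPM (median 69.9) in the early and 0 to 2.91 CPM (median 1.64) in the late controls of plate 3153-AT. It was 1.75 to 4.22 CPM against 0 to 0.751 CPM on plate 3206-AT, 3.37 to 6.84 CPM against 0.451 to 3.13 CPM on plate 3240-AT, and 4.37 to 13.6 CPM against 0 to 2.49 CPM on plate 3284-AT. No late well reached an early well of its own plate. The counts behind the late wells were few, at 35, 19, 61 and 22 summed over the late wells of the plates, beside 11269, 325, 370 and 1252 in the early wells. The 4-plate log2 difference was -4.10 ± 0.25 (adjusted p = 2.7e-25). The complement proteases C1R and C1S fell by 1.41 ± 0.13 and 1.12 ± 0.12. C1R ran from 85.7 to 125 CPM in early and from 0.224 to 17.6 CPM in late controls of plate 3153-AT. GALNT15, a glycosyltransferase, fell by 1.22 on the log2 scale and was called on every plate but 3240-AT. PDZK1IP1, a small membrane protein, fell by 1.37, but of the plates only 3153-AT called it (-3.71), with -0.35, -0.43 and -0.62 on the others, and without plate 3153-AT the difference was -0.47 (adjusted p = 0.030).

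**Figure D2:**
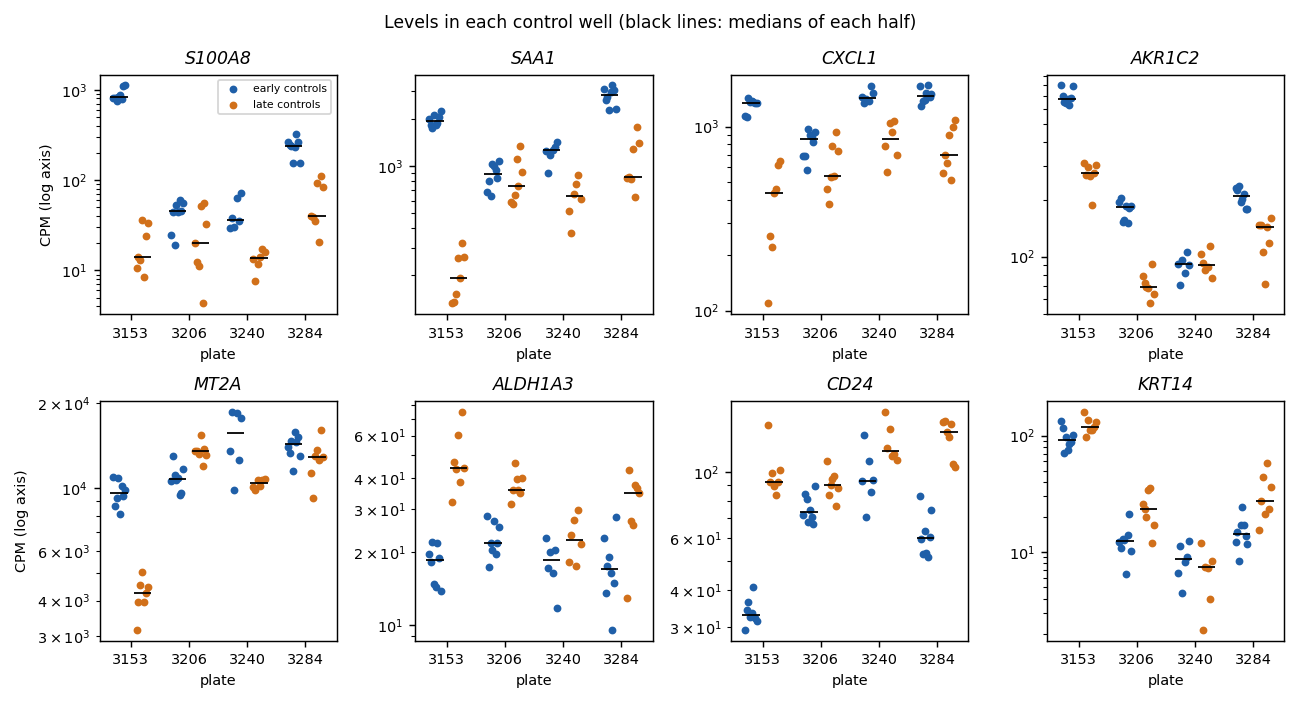
CPM (log axis) of 8 genes in each control well, by plate, with early controls in blue, late controls in orange and a black line at the median of each group. S100A8, SAA1 and CXCL1 lie lower in the late wells with an overlap on plate 3206-AT, AKR1C2 lies lower on every plate but 3240-AT, and ALDH1A3 and CD24 have higher medians in the late wells of each plate.

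Members of the glucocorticoid-induced list were lower on every plate except 3240-AT. In the 4-plate fit 6 of 12 tested genes were lower and 0 higher, with a median of -0.34. The plates gave 6 of 11 lower on 3153-AT, 9 of 11 on 3206-AT, 0 of 11 on 3240-AT and 7 of 11 on 3284-AT, with medians of -0.45, -0.69, 0.13 and -0.42, and 1, 1, 2 and 0 of 11 were higher in the same order. CEBPD, a transcription factor that glucocorticoids and cytokines both induce, had medians of 398 CPM in early and 151 CPM in late controls on plate 3153-AT and 322 against 138 CPM on plate 3284-AT, with no overlap on either plate. It fell by 0.80 ± 0.07 (SE) over the 4 plates (adjusted p = 3.0e-16). ERRFI1, a feedback inhibitor of the EGF receptor, fell by 0.59 ± 0.06 and the lipoxygenase ALOX15B by 0.61 ± 0.08. FKBP5, a chaperone partner of the receptor, did not pass at -0.04 ± 0.04. Without plate 3153-AT, 3 of 12 members were called lower.

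NRF2 targets split within the list. Of 22 tested genes, 10 were lower, 1 was higher (the cystine transporter SLC7A11) and 11 did not pass, among them NQO1, HMOX1, GCLC and TXNRD1. The median was -0.08. Among the lower ones were the aldo-keto reductases AKR1C1, AKR1C2 and AKR1C3, the pentose phosphate enzymes TALDO1, TKT and PGD, thioredoxin (TXN) and the ferritin subunits FTH1 and FTL, which store iron. AKR1C2, which reduces steroids, ran from 632 to 799 CPM (median 681) in early and from 187 to 310 CPM (median 277) in late controls on plate 3153-AT. It ran from 151 to 203 CPM (median 182) against 56.8 to 91.6 CPM (median 69.2) on plate 3206-AT. On plate 3240-AT the medians were 91.2 and 90.6 CPM. The wells were separate on plates 3153-AT, 3206-AT and 3284-AT and overlapped on 3240-AT, with log2 differences of -1.33 ± 0.07, -1.27 ± 0.09, 0.07 ± 0.10 and -0.70 ± 0.10 in plate order. FTH1 fell by 0.54 ± 0.04 over the 4 plates (adjusted p = 1.2e-18). AKR1C1 and AKR1C2, SAA1 and SAA2, and the ferritin and ribosomal protein genes have near-identical copies elsewhere in the genome, and how reads that match several copies were counted is not given in the sources used here.

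Metallothioneins bind zinc and copper and are induced by them through MTF1. Of 6 listed genes tested, 4 were lower (MT1E, MT1F, MT1X and MT2A) and 0 higher, with a median of -0.44, and without plate 3153-AT only 1 was lower. MT2A went down and up by plate: it ran from 8081 to 10938 CPM (median 9611) in early and from 3155 to 5045 CPM (median 4263) in late controls of plate 3153-AT, and from 9439 to 13055 CPM (median 10778) in early and from 12035 to 15395 CPM (median 13532) in late controls of plate 3206-AT. The wells were separate on plate 3153-AT and overlapped on plate 3206-AT. The log2 differences were -1.18 ± 0.06, 0.31 ± 0.05, -0.54 ± 0.10 and -0.13 ± 0.05, and the last was not called (adjusted p = 0.15). The interaction with the plate had an adjusted p of 7.2e-22.

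Glycolytic and hypoxia-induced genes were lower as a group by small amounts. Of 26 tested, 16 were lower, 1 (PFKP) was higher and 9 did not pass, with a median of -0.15. The plates gave 16 of 26, 6 of 26, 0 of 25 (3 at an unadjusted p under 0.05) and 5 of 26 lower, and the 4-plate fit without plate 3153-AT gave 7 of 26. LDHA, which makes lactate, had medians of 5138 against 4081 CPM on plate 3153-AT and 3547 against 3195 CPM on plate 3206-AT. Its wells were separate on plates 3153-AT, 3206-AT and 3284-AT, but the difference of -0.08 ± 0.04 on plate 3284-AT was not called (adjusted p = 0.23). The 4-plate difference was -0.17 ± 0.02 (adjusted p = 5.8e-08). BNIP3, a hypoxia-induced mitophagy receptor, fell by 0.44 ± 0.05. CA9, a carbonic anhydrase that HIF induces, ran from 17.7 to 29.4 CPM in early and from 1.30 to 10.4 CPM in late controls of plate 3153-AT, and over the 4 plates fell by 1.47 ± 0.21. Its medians were 5.86 against 3.10 CPM on plate 3206-AT, 1.68 against 0.674 CPM on plate 3240-AT and 1.75 against 0 CPM on plate 3284-AT. The wells overlapped on these 3 plates, CA9 was not called on 3206-AT (adjusted p = 0.17) or 3284-AT (adjusted p = 0.35), and it was too low to be tested on 3240-AT.

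Replication genes were higher in late controls. The 4-plate fit called 19 of 27 higher and 0 lower, with a median of 0.19. Plate 3153-AT gave 16 higher (median 0.36), plate 3206-AT 12 (median 0.28), plate 3240-AT 0 (median -0.05, with 2 higher and 3 lower at an unadjusted p under 0.05) and plate 3284-AT 4 (median 0.19) of 27. Among the 19 were MCM2 to MCM7 of the replicative helicase, PCNA, CDC6 and both subunits of ribonucleotide reductase. RRM2, the regulated subunit, ran from 432 to 461 CPM (median 444) in early and from 523 to 583 CPM (median 561) in late controls of plate 3206-AT, where they were separate. On plate 3240-AT its medians were 571 and 524 CPM and the wells overlapped. It rose by 0.25 ± 0.04 (SE) over the 4 plates (adjusted p = 5.6e-06). CDC6, which loads the helicase, ran from 49.8 to 62.7 CPM in early and from 80.5 to 123 CPM in late controls of plate 3153-AT. It rose by 0.32 ± 0.06, and without plate 3153-AT the difference was 0.17 and was not called (adjusted p = 0.13). In that fit 3 of the 27 were called. The histone list went the other way, with 0 of 16 higher and 7 lower in the 4-plate fit at an unadjusted p under 0.05. Its mean score differences were -0.69, -0.20, -0.39 and -0.54 in plate order, and the wells were separate only on plate 3153-AT. H2AC6 was -0.41 ± 0.10 and H4C3 -0.26 ± 0.08 over the 4 plates. Single plates differed, with H4C3 at 0.62 on plate 3206-AT and H2AC6 at 0.43, not called, on plate 3240-AT.

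Mitotic genes moved with the replication genes, with 16 of 25 higher, 0 lower and a median of 0.14, and 5 of 25 without plate 3153-AT. The counts on the plates were 17 of 24, 10 of 25, 0 of 24 and 6 of 24, and on plate 3240-AT 0 were higher and 2 lower at an unadjusted p under 0.05. Upstream windows of the members CDK1, the mitotic kinase, and KIF23, a kinesin of the dividing cell's midzone, are printed from RefSeq (GRCh38.p14) because both were called and hold TTTGAA, the letters of the cell-cycle homology region, in capitals. They lie at chr10:60778125-60778220 and chr15:69414249-69414344, both on the plus strand, in the 250 bases before the start. The capitals mark the first match found, 161 bases before the start site in CDK1 and 55 in KIF23. Whether these letters are the element that acts in either gene was not tested.
CDK1: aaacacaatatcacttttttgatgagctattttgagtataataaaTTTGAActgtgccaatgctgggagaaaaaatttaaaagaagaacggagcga
KIF23: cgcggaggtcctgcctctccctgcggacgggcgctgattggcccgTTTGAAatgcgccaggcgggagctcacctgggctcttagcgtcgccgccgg
TTTGAA, on either strand, was found in 13 of 21 mitotic genes with a promoter in the table (61.9%) and in 3704 of 27305 promoters (13.6%). TTTNGCGC, a form of the E2F sequence, was found in 5 of 23 replication genes (21.7%) and in 420 of all promoters (1.54%). These shares, too, do not bear on the difference between early and late controls. KIF23 ran from 64.6 to 92.5 CPM (median 80.1) in early and from 107 to 162 CPM (median 135) in late controls of plate 3153-AT, with no overlap, and rose by 0.35 ± 0.06 over the 4 plates. CDK1 rose by 0.24 ± 0.04. On plate 3240-AT the difference of KIF23 was 0.04 ± 0.09, with medians of 120 and 123 CPM.

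Chaperones of the heat shock response were higher. Of 18 tested, 12 were higher, 1 (HSPB1) was lower and 5 did not pass, with a median of 0.16, and without plate 3153-AT 7 were higher. HSPA8, the constitutive cytosolic HSP70, ran from 2973 to 3302 CPM (median 3169) in early and from 4229 to 4579 CPM (median 4470) in late controls of plate 3284-AT. It ran from 3264 to 3665 CPM (median 3456) against 4360 to 4826 CPM (median 4776) on plate 3153-AT and from 3395 to 3647 CPM (median 3587) against 3811 to 4092 CPM (median 4002) on plate 3206-AT. The wells were separate on these 3 plates and overlapped on plate 3240-AT, where the medians were 3561 and 3641 CPM. HSPA8 rose by 0.30 ± 0.03 over the 4 plates (adjusted p = 1.6e-12), and HSPH1, an HSP110 chaperone, by 0.34 ± 0.04.

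Basal epithelial genes were higher as well. Of 15 tested, 11 were higher (among them KRT5, KRT14, KRT17, TP63, ITGA6, COL17A1, LAMA3, DST, CDH3 and EGFR) and 0 lower, with a median of 0.28, and without plate 3153-AT 8 were higher. The counts were 10 higher and 1 lower on plate 3153-AT, 8 and 1 on 3206-AT, 2 and 0 on 3240-AT, and 9 and 1 on 3284-AT. KRT17, a stress keratin, had medians of 134 against 211 CPM on plate 3206-AT and 177 against 288 CPM on plate 3284-AT, with no overlap. On plate 3153-AT the medians were 462 and 437 CPM and the wells overlapped. KRT17 rose by 0.45 ± 0.06 over the 4 plates. KRT14 had medians of 92.0 and 119 CPM, 12.4 and 23.5, 8.65 and 7.44, and 14.4 and 27.6 CPM on the plates in order, and early and late wells overlapped on each. It rose by 0.59 ± 0.11 (adjusted p = 6.0e-05).

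The 12 highest differences, among called genes at an average log2 CPM of at least 4 with the same sign on all plates, included ALDH1A3, CD24, EPCAM, S100A14, S100A2, SNAI2 and THBS1. ALDH1A3, a retinaldehyde dehydrogenase used as a progenitor marker, ran from 13.8 to 21.9 CPM (median 18.5) in early and from 32.1 to 75.2 CPM (median 44.2) in late controls of plate 3153-AT, and from 17.3 to 27.9 CPM (median 21.7) against 31.4 to 46.1 CPM (median 35.9) on plate 3206-AT. The wells were separate on both. It rose by 0.85 ± 0.10 (SE) over the 4 plates. CD24, a luminal surface glycoprotein, had medians of 32.9 against 92.1 CPM on plate 3153-AT and 59.9 against 136 CPM on plate 3284-AT, again with no overlap, and rose by 0.76 ± 0.08. EPCAM, an epithelial adhesion protein, rose by 0.53 ± 0.09, with an overlap on every plate. S100A14 and S100A2, calcium-binding proteins of stratified epithelium, rose by 0.64 ± 0.06 and 0.51 ± 0.06. SNAI2, a repressor that marks basal mammary cells, rose by 0.57 ± 0.08. On plate 3240-AT, ALDH1A3 (0.36), CD24 (0.37), EPCAM (0.64), S100A14 (0.44), S100A2 (0.05) and SNAI2 (0.15) were not called. EPCAM (0.42) and SNAI2 (0.17) were not called on plate 3206-AT either. THBS1 rose by 0.58 ± 0.05, with medians of 158 against 295 CPM on plate 3153-AT, 257 against 349 on 3206-AT, 264 against 340 on 3240-AT and 175 against 257 on 3284-AT. Only on plate 3206-AT did its wells overlap. The luminal list gave 6 of 13 higher and 2 lower, and its median of -0.02 turned to 0.00 with RLE scaling and 0.13 after thinning.

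Ribosomal protein genes were lower in 68 of 78 and higher in 0 of 78 in the 4-plate fit, with a median of -0.22. On plate 3153-AT 75 of 78 were lower (median -0.64), while plate 3206-AT had 15 higher and 1 lower (median 0.06), plate 3240-AT 8 lower of 77 (median -0.24, with 54 lower and 0 higher at an unadjusted p under 0.05) and plate 3284-AT 6 higher and 20 lower (median -0.09). Without plate 3153-AT, the 4-plate fit called 7 of 78 lower. The share of counts in ribosomal protein genes was 9.70% to 11.1% in early and 6.89% to 8.37% in late controls of plate 3153-AT (adjusted exact permutation p = 0.000622), and the shares were separate. Late controls also had a lower median share on plate 3240-AT (8.18% against 8.90%, adjusted exact permutation p = 0.049) and plate 3284-AT (9.36% against 9.92%, adjusted exact permutation p = 0.047), with an overlap on both. RPS14, a protein of the small subunit, had medians of 2292 against 1399 CPM on plate 3153-AT and 1791 against 1856 CPM on plate 3206-AT. Nuclear genes of oxidative phosphorylation gave 16 of 34 lower and 0 higher (median -0.20), with 30 of 34 lower on plate 3153-AT, 9 higher and 2 lower on plate 3206-AT (median 0.18), 0 called on plate 3240-AT (median -0.18, with 17 lower and 0 higher at an unadjusted p under 0.05) and 8 lower on plate 3284-AT (median -0.19). The median was -0.04 in the 4-plate fit without plate 3153-AT. The 13 transcripts of the mitochondrial genome were all lower on plate 3153-AT (median -0.53). In the 4-plate fit 8 were lower, and without plate 3153-AT 1 was. The mitochondrial share of counts was 4.91% to 5.65% in early and 3.89% to 4.30% in late controls of plate 3153-AT, and overlapped on the other plates.

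Short and long transcripts also shifted differently, most on plate 3153-AT. Genes at an average log2 CPM of at least 4 were put into 5 classes by the median length of their protein-coding transcripts. Lengths came from GENCODE v29, which matched 97.0% of these genes on plate 3153-AT. On plate 3153-AT the median log2 difference ran from -0.09 in the shortest class (207 to 858 bases) to 0.14 in the longest (3251 to 27174 bases). In the shortest class 174 genes were higher and 409 lower, and in the longest 321 were higher and 101 lower. The shortest and longest classes had medians of -0.05 and 0.06 on plate 3284-AT and of -0.03 and 0.02 on plate 3240-AT. On plate 3206-AT the medians went the other way, at 0.04 in the shortest and -0.01 in the longest class. After thinning the medians of plate 3153-AT were -0.08 and 0.16, and those of plate 3284-AT -0.01 and 0.08. Leaving out the ribosomal protein genes changed the shortest class of plate 3153-AT to -0.07. Ribosomal and respiratory chain genes have short transcripts, and the part of length in their difference was not tested.

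**Figure D3:**
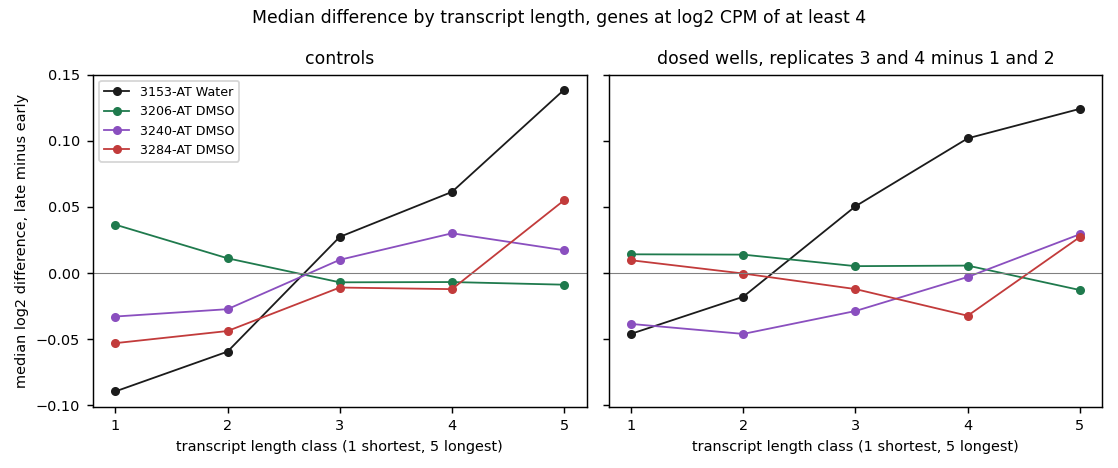
Median log2 difference, late minus early, of the genes in each of 5 transcript length classes (1 shortest, 5 longest), 1 line per plate, for control wells (left) and for replicates 3 and 4 minus 1 and 2 of the dosed wells (right). Plate 3153-AT climbs with length in both panels, from -0.09 to 0.14 in the controls, and the other plates stay between -0.05 and 0.06.

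Several other lists moved little over the 4 plates, but some moved on single plates. The interferon score was separate on plate 3153-AT, at 3.22 to 3.52 in early and 2.59 to 3.04 in late controls. Its genes were mixed on that plate, with 4 of 24 tested higher and 9 lower at an unadjusted p under 0.05. The score of aryl hydrocarbon receptor targets was separate there too, at 3.30 to 3.68 against 3.76 to 4.22. ER chaperone scores were separate on plate 3284-AT, at 6.677 to 6.775 against 6.378 to 6.604. On the other plates the scores of these lists overlapped. Separate scores were common on plate 3153-AT, also for lists such as extracellular matrix and snoRNA host genes. The part of the lower depth of its late controls in these scores was not tested. Cholesterol synthesis gave 3 of 22 higher, with HMGCS1 and IDI1 among them, and a median of 0.01, and the ATF4 response gave 5 of 25 higher and 2 lower, among them the amino acid transporter subunits SLC7A5 (0.40) and SLC3A2 (0.26) on the higher side. Interferon response genes gave 0 of 27 higher and 2 lower (IFITM1 and IFITM3), p53 targets 0 of 22 higher and 1 lower, and ER chaperones 0 of 17 higher and 1 lower. The ERK response list gave 5 of 25 higher and 4 lower, and the 4 were FOS, JUNB, DUSP1 and AREG. Among genes held as markers of other cell types, DCN, a proteoglycan typical of fibroblasts, was lower (-0.95 ± 0.10), while FAP, a fibroblast protease, did not pass at 0.17 ± 0.11 (adjusted p = 0.38). Of the immune markers CD14 was lower (-0.45 ± 0.09), and without plate 3153-AT it was -0.28 and not called (adjusted p = 0.12). CSF1R did not pass in the 4-plate fit at 0.40 ± 0.27 (adjusted p = 0.40) and was called higher on plate 3153-AT at 1.40 ± 0.50 (adjusted p = 0.036). The 8 measured fibroblast markers summed to 135 to 170 CPM in early and 38 to 71.4 CPM in late controls of plate 3153-AT, to 54.1 to 71.2 against 32.3 to 55.5 CPM on plate 3206-AT, to 55.4 to 63.7 against 49.7 to 87.5 CPM on plate 3240-AT and to 80.4 to 102 against 53.2 to 79.8 CPM on plate 3284-AT. Of these markers DCN and FAP were above 0 in every well, LUM was at 0 in 43, PDGFRA in 53 and COL1A2 in 56 of the 57 wells. Their part in the differences was not tested. Targets of the aryl hydrocarbon receptor gave 2 of 7 higher and 2 lower. CYP1B1, the most abundant of them, was lower at -0.25 ± 0.05 (adjusted p = 7.7e-05). CYP1A1 was at 0 to 0.663 CPM in early and 1.62 to 9.51 CPM in late controls of plate 3153-AT, from 42 and 139 counts in all.

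**Figure D4:**
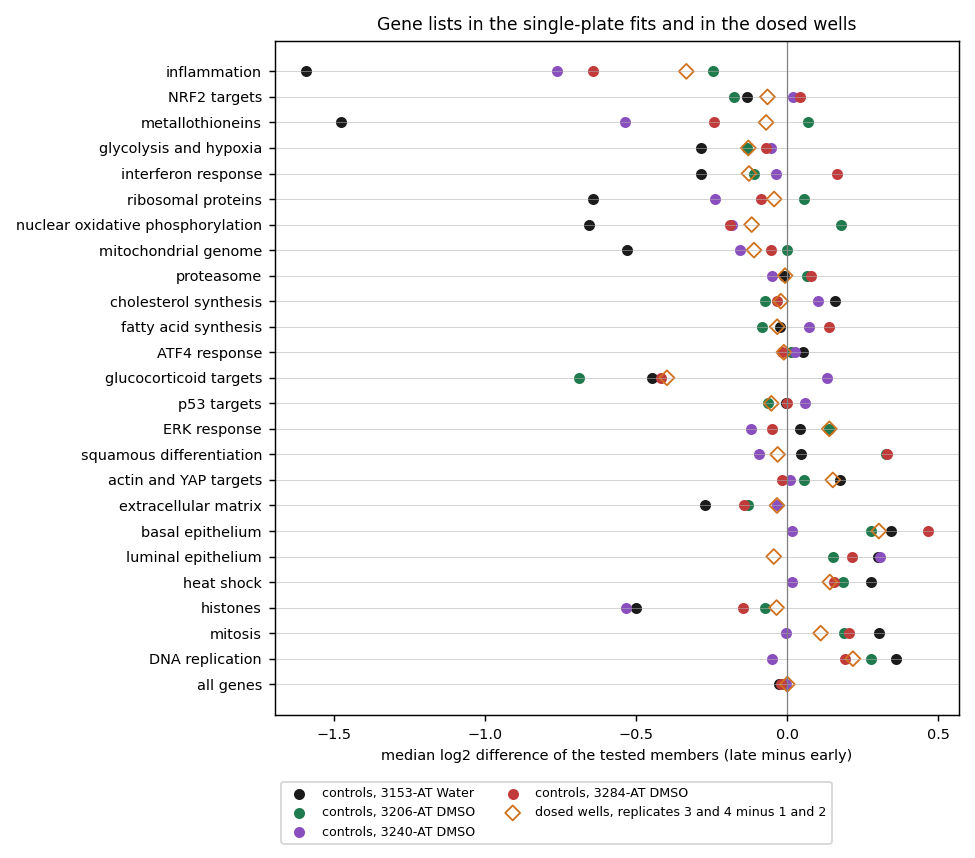
Median log2 difference of the tested members of 24 gene lists and of all genes, late minus early, for the controls of each plate (filled circles) and for the dosed wells (open diamonds, replicates 3 and 4 minus 1 and 2). The inflammation list lies furthest left on plate 3153-AT (-1.59), DNA replication and basal epithelium lie right of 0 on 3 plates, and plate 3240-AT lies near 0 for both.

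A few genes also differed by place within a group. A test of the barcode, which stands for the place in the block, within the early and within the late controls across plates called 7 of 16900 genes (0.0414%). Led by TFRC, the transferrin receptor that brings iron into cells (adjusted p = 1.1e-05), they included the nucleoporin NUP160, the nuclear import receptor IPO7 and ANLN, a scaffold of the cleavage furrow. TFRC at place 1 was 95.9, 135 and 163 CPM on plates 3206-AT, 3240-AT and 3284-AT, the lowest early well of each. At place 9 it was 86.9 and 139 CPM on plates 3240-AT and 3284-AT, the lowest late well of both. Elsewhere on plate 3206-AT the early wells ran from 242 to 276 CPM. NUP160 was lowest at the same places, with 21.4 CPM at place 1 on plate 3206-AT and 9.17 CPM at place 9 on plate 3284-AT. Place 9 of plates 3153-AT and 3206-AT is not analysed here. On plate 3153-AT TFRC was lowest at place 4 (180 CPM), followed by place 1 (189 CPM). The count moved with the method, to 65 with DESeq2 and 117 without a filter on low counts. In a limma voom fit with the barcode as a random effect, the consensus correlation of wells with 1 barcode was -0.0092.

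The dosed wells gave a comparison that shares no library with the controls. How replicate numbers of dosed wells relate to control numbers is not given in the sources used here. Each chemical and dose had up to 4 replicates, and replicates 3 and 4 were set against replicates 1 and 2 with a mean for each plate, chemical and dose. Their median totals were 14.01 M in replicates 3 and 4 and 14.05 M in replicates 1 and 2 on plate 3153-AT, 13.3 and 11.96 M on 3206-AT, 12.4 and 11.8 M on 3240-AT, and 14.5 and 12.8 M on 3284-AT. The fit called 3202 genes higher in replicates 3 and 4 (10.6% of 30167 tested) and 3040 lower (10.1%). Of the 1825 genes called in the 4-plate fit of the controls, 1467 were called here (80.4%), 1445 of them in the same direction. The 1467 were 24.1% of the calls of the dosed wells that were tested in both. Among all 16900 genes tested in both, 6093 were called in the dosed wells. Plate by plate, 2326 of the 2670 calls of plate 3153-AT were called in the dosed wells of that plate, 2270 of them in the same direction. For plates 3206-AT, 3240-AT and 3284-AT the counts were 660 of 849, 53 of 70 and 612 of 848, with 658, 45 and 592 in the same direction. Among all genes tested in the controls of a plate, 53%, 19.9%, 27.6% and 30.6% were called in its dosed wells, in the order of the plate numbers.

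Several genes named above differed in the same direction in the dosed wells, where S100A8 fell by 1.96 ± 0.11 (SE), IL1RL1 by 2.63 ± 0.09, CA9 by 1.55 ± 0.09 and AKR1C2 by 0.70 ± 0.04, and CD24 rose by 0.73 ± 0.03, THBS1 by 0.66 ± 0.03 and ALDH1A3 by 0.58 ± 0.04. Plate by plate the S100A8 difference was -4.22 on 3153-AT, -0.76 on 3206-AT, -0.60 on 3240-AT and -1.14 on 3284-AT. All 27 replication genes were higher (median 0.22), as were 22 of 25 mitotic genes, 17 of 18 heat shock genes and 13 of 15 basal genes, while 19 of 26 inflammation genes, 9 of 12 glucocorticoid targets and 20 of 26 glycolysis and hypoxia genes were lower. Chemokine values lay nearer to 0 than in the controls: CXCL1 was -0.39 ± 0.04 against -0.95 ± 0.10, and CXCL8 was -0.03 ± 0.05 (adjusted p = 0.80) against -0.79 ± 0.08. Whether these effects differ was not tested. Ribosomal protein genes were 27 of 78 lower and 4 higher over all plates, with 77 of 78 lower on plate 3153-AT and 59 of 78 higher on plate 3284-AT. Calls were common among all abundant genes of the dosed wells. At a log2 CPM of at least 4, the 5 length classes of 1467 or 1468 genes each had 329 to 566 higher and 209 to 485 lower. The shortest class, to which most ribosomal protein genes belong, had 329 higher and 485 lower of 1468.

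**Figure D5:**
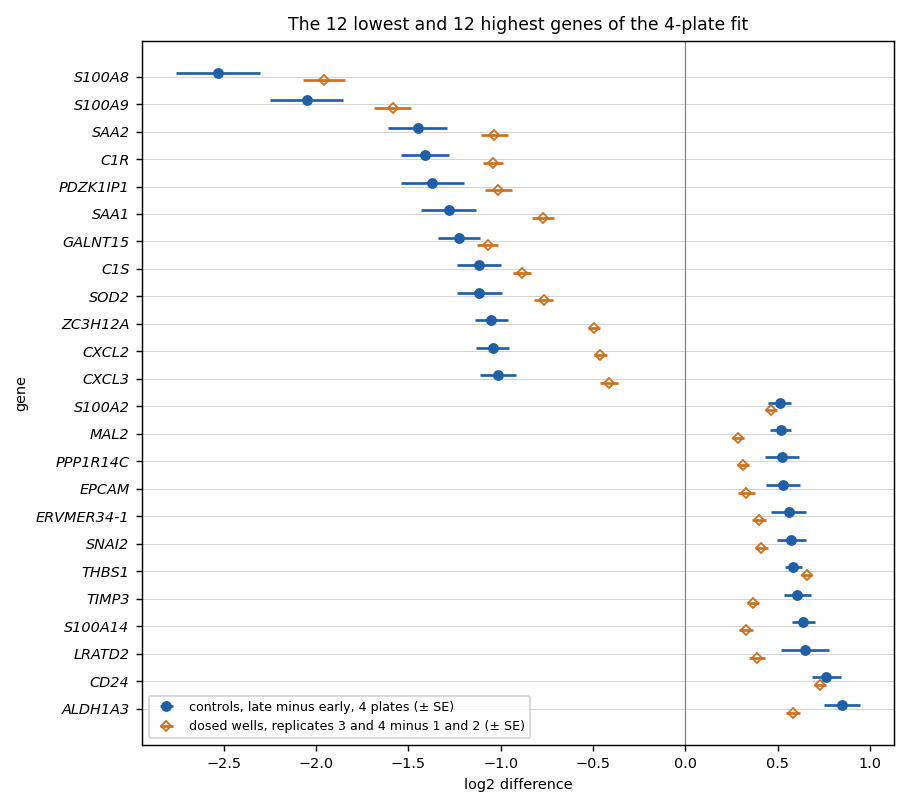
Log2 differences with standard errors for the 12 lowest and 12 highest well-expressed genes of the 4-plate control fit (blue circles) and for the same genes in the dosed wells (orange diamonds, replicates 3 and 4 minus 1 and 2). All 24 genes lie on the same side of 0 in both, and 23 of them, all but THBS1, lie nearer to 0 in the dosed wells; the genes were chosen as extremes of the control fit, a choice that by itself favours values nearer to 0 elsewhere.

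The 4 water controls of plate 3240-AT, numbers 39 and 40 early and 47 and 48 late, were not tested on their own, with 2 wells a group. S100A8 was 29.3 and 31.7 CPM, scaled by the total count, in the early and 40.9 and 31.5 in the late wells. SAA1 was 389 and 319 in the early and 372 and 341 in the late wells, and AKR1C2 was 322 and 253 in the early and 405 and 421 in the late wells. The early and late wells overlapped for S100A8 and SAA1, and for AKR1C2 the late wells lay above the early ones.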

How the data were processed

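Whole-well lysates were turned into barcoded cDNA and pooled by plate, per the labels' protocols. The authors deposited 1 file of whole-number read counts per gene symbol for each well, made with STAR, featureCounts, FastQC and MultiQC on GRCh38, per the submitters' processing notes; the sources used here do not give versions, strand setting or the treatment of reads matching several genes. Run 1 libraries were not used.

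Counts were fitted with edgeR 4.0.16 in R 4.3.3 (TMM, filterByExpr with a minimum count of 10 and a minimum total of 15, quasi-likelihood test, Benjamini-Hochberg adjustment): each plate alone, the 4 plates with a mean per plate, the interaction with the plate, the barcode within early and late controls, and the dosed wells. Fits were tested on simulated data. CPM use the TMM factors of the 4-plate fit, counting error and well spread together set their precision, and log2 differences are late minus early with the standard error as the absolute difference divided by the square root of F. Library properties were compared with two-sided exact permutation tests over wells. Control totals ran from 1.93 to 23.9 M counts. No libraries held identical counts.

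Members and the 34 gene lists (693 genes, 683 in the files) were chosen with earlier results of these data known. Named genes are the 12 highest and 12 lowest called differences at an average log2 CPM of at least 4 with 1 sign on all plates, the most abundant member and the 3 of smallest p of each list, the 3 highest and 3 lowest of each plate, and the 6 of smallest p in the interaction and barcode tests. CXCL1, CXCL8 and IL1B were described in addition after their values were seen, and other listed members are named where a count is broken down. Alternatives were RLE scaling, DESeq2 1.42.0, limma 3.58.1 voom with the barcode as a random effect, no filter, thinning, other sets of libraries and plates, and leaving out each library. Counts of lists under these alternatives and dosed fits of single plates were added after seeing the data. Some genes that the rule names are not reported here.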

Additional observations from a re-analysis of the deposited data

Results flagged for a closer look

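In 96 groups of wells and measures, 5 held a library that stood apart from the rest of its group by Dixon's criterion, which chance meets in about 1 of 20 groups. Among the early controls of plate 3153-AT, control 1 had the lowest total (12.6 M counts) and the fewest symbols with a count (16914). Among the late controls of that plate, control 14 had the lowest AKR1C2 level (187 CPM) and control 10 the highest CD24 level (144 CPM). Control 57 had the highest mitochondrial share of the late controls of plate 3284-AT (5.17%).

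The difference between late and early controls varied with the plate for all 8 genes plotted by well, by edgeR's test of the interaction. The adjusted p was 1.7e-24 for SAA1, 7.2e-22 for MT2A, 1.2e-19 for S100A8, 3.5e-14 for AKR1C2, 1.1e-11 for CD24, 2.5e-07 for CXCL1, 0.0157 for KRT14 and 0.0163 for ALDH1A3. S100A8 ranged from -5.61 on plate 3153-AT to -0.62 on plate 3206-AT. MT2A was lower on plate 3153-AT and higher on plate 3206-AT. Plate and solvent are confounded for plate 3153-AT, the 1 plate of the comparison with water controls, and cannot be told apart there.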

How the results depend on the processing

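No paired analysis was possible because early and late controls share no control number, and the barcode as a random effect took the place of a block. The 4-plate fit called 1825 genes, 426 without plate 3153-AT and 296 without libraries of under 5 M counts, and the other alternatives gave 1361 to 2474. Fits with all libraries of a plate called 1316, 377, 33 and 330 genes on plates 3153-AT, 3206-AT, 3240-AT and 3284-AT. Without a low-count filter plate 3240-AT had 167 calls. Leaving out 1 library gave 2300 to 2733, 672 to 982, 43 to 163 and 602 to 886 calls. The barcode test gave 65 calls with DESeq2 and 117 without a filter. Dosed wells of plates 3206-AT and 3240-AT alone gave 2853 and 3697 calls. Of 148 named genes, 60 lost their call without the shallow libraries and 41 without plate 3153-AT. H4C3 turned to 0.0376 without the shallow libraries and HOMER3 to -0.0439 without plate 3206-AT. The cause was not tested.

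With 1 library left out, the late minus early mitochondrial share ran from -0.160 to -0.0688 points on plate 3206-AT, -0.0589 to 0.0939 on 3240-AT and -0.0851 to 0.0346 on 3284-AT. It changed sign in 2 of 12 and 9 of 15 cases on the last plates and passed the threshold in 1 case on 3206-AT. The ribosomal share ran from -0.796 to -0.479 points on plate 3240-AT and -0.624 to -0.422 on 3284-AT, and each lost its call in 11 cases.

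Depth limits the comparison most on plates 3153-AT and 3284-AT, where 1 and 0 of 7 late controls reached 5 M counts. Intervals and errors cover the wells at hand.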

Other observations

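Late wells with the highest inflammation scores, the mean log2(CPM + 1) of the list, were noticed at the end of the block after the values were seen. The test of the barcode within early and late controls did not call S100A8 or SAA1 (adjusted p = 0.999 for both), and S100A8, SAA1 and CXCL1 are members of the list, so their levels are not separate from the score. On plate 3153-AT the scores at places 15 and 16 were 5.11 and 5.12, the highest of the late wells, against 3.91 at place 10. On plate 3284-AT they were 5.85 and 5.92, again the highest, against 5.21 to 5.81 elsewhere. On plate 3206-AT places 15, 13 and 16 had 5.65, 5.52 and 5.41, and the other late wells 4.65 to 4.92. In those 3 wells of plate 3206-AT S100A8 was 55.8, 51.4 and 32.6 CPM, while the other late wells had 4.32 to 19.9 CPM. SAA1 was 1334, 1108 and 918 CPM there and at most 738 CPM in the other late wells. CXCL1 was 940, 786 and 734 CPM there and at most 542 CPM elsewhere. Plate 3240-AT holds no DMSO control at places 15 and 16.

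The dosed library of cadmium at 25 µM, replicate 4, with 1284517 counts, carries the plate barcode of 3284-AT and the well barcode of place 14, the place of control 62, which is not analysed here.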
